A study of Mus musculus with 12 samples.

Results

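The genes examined were 37 genes of proliferation and the cell cycle, taken by symbol from the 26699 gene symbols counted in 12 libraries of sorted synovial macrophages. They comprised 4 G1 regulators, 6 subunits of the MCM helicase, 5 genes of nucleotide supply and the replication clamp, 6 mitotic kinases and cyclins, 10 genes of the spindle, kinetochore and chromosomal passenger complex, 2 partners of the anaphase-promoting complex and 4 chromatin and microtubule genes widely used as proliferation markers. Of the 37 genes, 35 were among the 11927 genes with enough counts to be tested, and Ccnb1 and Plk1 were not. Whole synovial explants of adult wild-type C57BL/6 mice were kept for 4 h with 100 nM CGRP, the neuropeptide calcitonin gene-related peptide released by nociceptors, or without it. MHCII+ macrophages were then sorted as a CD11c- subset, titled IAIE, and a CD11c+ subset, titled CD11c, and total RNA was sequenced with a stranded pico-input kit. Each of the 4 groups of subset and treatment (IAIE control, IAIE CGRP, CD11c control and CD11c CGRP) held 3 libraries. The controls are titled healthy, no group carried a genetic change, and the labels do not say which animals or explants a library came from. Because CGRP was given to the whole tissue, the sorted cells were exposed to it together with everything the explant held and released.

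A cell that divides first passes G1, where D-type cyclins with their kinases release E2F transcription factors from the retinoblastoma protein and inhibitors such as p21 hold the kinases back. E2F then drives the genes that load and fire the MCM helicase and that supply deoxynucleotides for DNA replication, and a later wave of transcription, bound by the MuvB complex with B-MYB and FOXM1 at CHR elements and by NF-Y at CCAAT boxes, provides the kinases, cyclins and spindle proteins of mitosis. Macrophages resident in tissues are mostly quiescent and can renew by low-level local division, so that transcripts of this programme are sparse in them.

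Library totals ranged from 2127191 to 5649698 counts, and the 37 genes together held 0.0906% to 0.138% of them. All levels below are CPM, counts scaled to the size of each library with TMM factors, and 3 counts, taken as the floor of detection in a library, correspond to 0.534 to 1.34 CPM. CGRP libraries were deeper on average than controls, with 4009081 to 5649698 counts against 2127191 to 4465508. The 10 macrophage markers summed to 8907 to 12206 CPM in IAIE controls and 6452 to 8357 CPM in CD11c controls, and all of them were detected. Of 11 listed T and NK cell markers, 7 were among the counted symbols and 2 were tested. Cd3d, Cd8a, Trac, Klrb1c and Gzma were below the limit for testing, whereas all 11 B cell markers passed it. Within groups, libraries correlated with Spearman's rho of 0.934 to 0.968, and the files alone do not show whether the 3 libraries of a group came from separate animals, so p-values measure the spread between these libraries.

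Promoter windows of RefSeq (GRCm38.p6, 250 bases before to 50 bases after the gene start) were at hand for 31 of the 37 genes, and for 9 of the 12 genes that passed the test in a CGRP comparison. The bases before the start are given for 7 of these, those whose RefSeq start lies within 100 bases of the gene start in GENCODE. They were chosen because they passed in a CGRP comparison, although some of these calls depended on single libraries or on the tool (given below). Each is written 5′ to 3′ along its gene, and capitals mark the letters TTTGAA of the CHR core and CCAAT of the NF-Y box, each in either orientation (TTCAAA and ATTGG).
Mki67 (chr7:135716380-135716629, minus strand): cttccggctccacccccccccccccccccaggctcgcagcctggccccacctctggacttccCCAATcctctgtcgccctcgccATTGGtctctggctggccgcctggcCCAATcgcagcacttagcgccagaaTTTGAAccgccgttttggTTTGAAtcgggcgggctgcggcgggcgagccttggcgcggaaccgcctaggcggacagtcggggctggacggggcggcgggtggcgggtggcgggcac
Top2a (chr11:99024190-99024439, minus strand): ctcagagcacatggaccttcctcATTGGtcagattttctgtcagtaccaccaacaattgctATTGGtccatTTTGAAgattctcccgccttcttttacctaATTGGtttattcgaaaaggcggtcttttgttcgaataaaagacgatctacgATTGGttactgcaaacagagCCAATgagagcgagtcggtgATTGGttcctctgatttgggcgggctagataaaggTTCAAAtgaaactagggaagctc
Mcm2 (chr6:88898781-88899030, minus strand): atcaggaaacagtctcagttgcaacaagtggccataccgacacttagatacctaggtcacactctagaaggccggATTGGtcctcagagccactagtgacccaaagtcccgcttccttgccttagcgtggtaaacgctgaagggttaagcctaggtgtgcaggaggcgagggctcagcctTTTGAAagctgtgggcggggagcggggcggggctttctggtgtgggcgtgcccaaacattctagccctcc
Mcm3 (chr1:20820313-20820562, minus strand): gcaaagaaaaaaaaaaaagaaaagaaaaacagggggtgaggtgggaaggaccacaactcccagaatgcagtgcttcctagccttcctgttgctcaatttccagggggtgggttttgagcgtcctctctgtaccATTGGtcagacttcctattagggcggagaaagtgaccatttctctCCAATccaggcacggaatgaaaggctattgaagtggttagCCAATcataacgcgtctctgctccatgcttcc
Rrm1 (chr7:102441445-102441694, plus strand): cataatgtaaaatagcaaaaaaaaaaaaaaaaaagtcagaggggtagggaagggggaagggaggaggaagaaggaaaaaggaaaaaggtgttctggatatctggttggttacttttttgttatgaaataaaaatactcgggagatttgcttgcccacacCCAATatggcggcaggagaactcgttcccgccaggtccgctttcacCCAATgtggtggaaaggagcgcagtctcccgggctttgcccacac
Nusap1 (chr2:119618048-119618297, plus strand): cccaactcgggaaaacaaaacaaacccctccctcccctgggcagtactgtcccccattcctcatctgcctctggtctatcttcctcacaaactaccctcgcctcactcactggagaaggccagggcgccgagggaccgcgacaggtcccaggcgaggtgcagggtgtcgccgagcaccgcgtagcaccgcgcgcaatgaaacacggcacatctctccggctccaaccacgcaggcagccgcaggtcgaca
Cdkn1a (chr17:29090729-29090978, plus strand): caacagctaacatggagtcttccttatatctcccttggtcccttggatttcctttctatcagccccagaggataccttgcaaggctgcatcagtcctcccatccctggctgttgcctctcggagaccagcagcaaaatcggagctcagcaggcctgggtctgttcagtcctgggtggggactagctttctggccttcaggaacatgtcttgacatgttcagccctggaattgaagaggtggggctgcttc

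Of the 7 printed stretches, those of Mki67 and Top2a held the most of these letters. Mki67 had CHR cores 116 and 98 bases before its start and CCAAT boxes 188, 166 and 141 bases before it. Top2a had CHR cores 179 and 23 bases before its start and 6 CCAAT boxes. Mcm2 carried each motif once, 70 bases before the start for the CHR core and 175 for the box, while Mcm3 had 3 CCAAT boxes and Rrm1 had 2, both without a CHR core. No such letters occurred in the Nusap1 and Cdkn1a windows; Cdkn1a, which encodes the inhibitor p21, is a gene with another direction of change (given below). The E2F word TTTNNCGC was also searched on both strands, and Mcm3 had it at 2 places after the start, outside the printed bases. Over whole windows, the CHR core was in 14 of 31 members (45.2%) against 17.9% of 32851 promoter windows, the NF-Y box in 24 (77.4%) against 37.4%, and the E2F word in 6 (19.4%) against 5.17%. CHR core and NF-Y box stood together in 14 members (45.2%) and in 6.95% of all windows. Among the 9 genes past the threshold with CGRP, 3 had a CHR core, 6 an NF-Y box, 2 an E2F word and 3 none of the 3. A match of letters is a description of the window and not a binding site.

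Divided by exon length, the levels of the 37 genes spanned a wide range within every group. Cdkn1a was the highest of them in all 4 groups, at 119 ± 13.2 CPM per kb (SD, n = 3) in IAIE controls and 137 ± 6.87 in CD11c controls. Pcna, the sliding clamp of DNA polymerases, came next in IAIE controls at 78.1 ± 21.1 CPM per kb, followed by Hmgb2, a DNA-bending chromatin protein, at 32.5 ± 4.76. In CD11c controls Pcna at 40.98 ± 1.92 and Hmgb2 at 39.6 ± 5.81 CPM per kb lay within their spread of each other. Stmn1, which encodes the microtubule-destabilizing protein stathmin, was the fourth throughout, at 15.2 ± 4.45 CPM per kb in IAIE controls and 20.3 ± 3.35 in CD11c controls. The fifth place was held by the helicase subunit Mcm3 in both IAIE groups and by Mki67, the Ki-67 antigen of cycling cells, in both CD11c groups; in IAIE controls Mcm3, at 14.1 ± 6.03, was within its spread of Stmn1.

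The genes of mitosis proper were at the other end. With CGRP, 4 genes of the IAIE subset were at or under the floor of 3 counts in all 3 libraries, namely Ccna2 and Ccnb1, which encode cyclins A and B, Plk1, a mitotic kinase, and Birc5, the survivin subunit of the passenger complex. Of the 35 genes tested, 17 had a mean under 10 CPM over the 12 libraries and 18 a mean of 10 CPM or more. Standard errors of the log2 CGRP effect ran from 0.567 to 1.19 in the first class and from 0.128 to 0.444 in the second. In the low class 13 of 17 effects in IAIE cells and 15 of 17 in CD11c cells were below 0, yet Nusap1 in IAIE cells was the sole gene of that class to pass the test in either subset. Fitted differences of more than 2 log2 units could miss the threshold in this class, as that of Birc5 in IAIE cells did (-2.67 ± 1.15, adjusted p = 0.176).

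**Figure D1:**
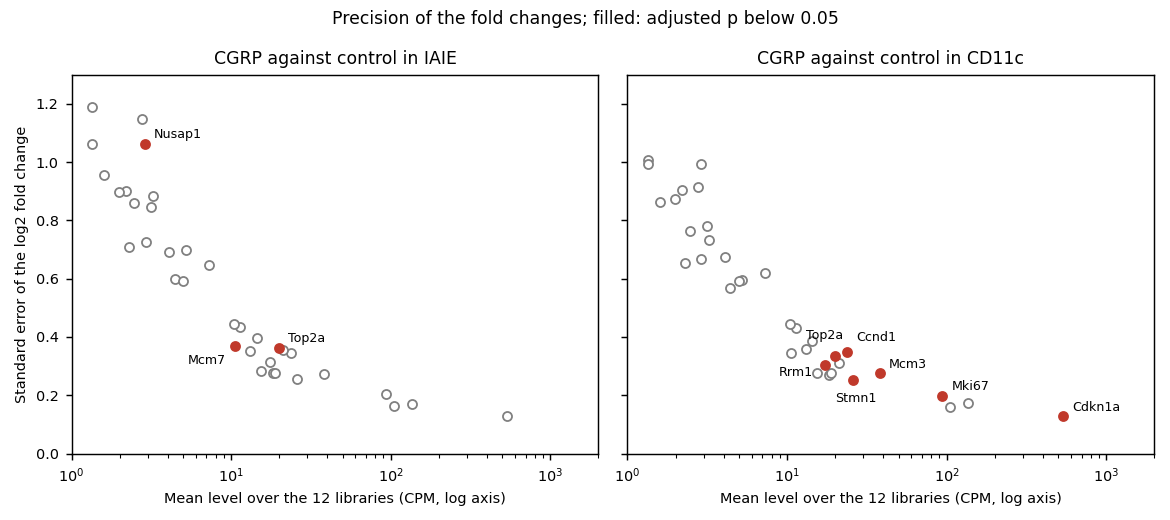
Standard error of the log2 CGRP effect (vertical axis) of the 35 tested genes (points) in IAIE and CD11c cells (left and right panel) against their mean level in CPM over the 12 libraries (horizontal axis, log scale); filled and named points passed an adjusted p of 0.05 in edgeR. The standard errors exceed 0.5 under 10 CPM, and of the genes that passed only Nusap1 in IAIE cells lies there.

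With CGRP, Mki67, Top2a, Stmn1, Mcm3, Rrm1 and Ccnd1 fell in CD11c cells and Cdkn1a, the gene of the inhibitor p21, rose. In the IAIE subset Top2a, Mcm7 and Nusap1 fell by edgeR, and limma-voom called none. Of 35 genes tested, 3 (8.57%) passed in IAIE cells, all lower, where edgeR called 9.21% of all 11927 genes, 5.32% higher and 3.89% lower. In CD11c cells 7 of 35 passed, 6 lower and 1 higher, where 10.9% of all genes were called, 6.29% higher and 4.59% lower. The share in IAIE cells was thus no larger than that of all genes, although all 3 calls were in the lower direction.

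The signs were more one-sided than the calls. Below 0 were 27 of 35 effects in IAIE cells and 32 of 35 in CD11c cells, with medians of -0.61 and -0.68 on the log2 scale beside -0.023 and 0.002 over all genes tested. At an unadjusted p under 0.05 there were 11 of 35 genes in IAIE cells and 10 in CD11c cells. The share of all genes under that limit was not determined, so an excess is not shown by these counts. It was at least the 9.21% in IAIE cells and 10.9% in CD11c cells that passed the adjusted threshold. The 3 CGRP libraries lay entirely below the 3 controls for 7 genes in IAIE cells. There, 24.9% of all genes had groups that did not overlap, and 12% of all genes had CGRP below. In CD11c cells the CGRP libraries lay entirely below for 15 genes. Of all genes, 29.2% had groups apart there and 13.8% had the CGRP libraries below. They lay entirely above for no gene in IAIE cells (12.9% of all genes) and for Cdkn1a alone in CD11c cells (15.4%). Since the cells were sorted and sequenced in bulk, fewer cycling cells and less of these transcripts per cell cannot be told apart.

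These counts rested in part on single libraries. In IAIE cells the count of 3 became 0 without IAIE control replicate 1, 0 without IAIE CGRP replicate 2 and 1 without IAIE CGRP replicate 3, and limma-voom called 0. In CD11c cells the count of 7 became 4 without CD11c control replicate 3 or without CD11c CGRP replicate 2. The IAIE median moved to -0.36 without IAIE control replicate 1 and to -0.34 without IAIE control replicate 2, and was -0.33 after all libraries were thinned to the lowest total.

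**Figure D2:**
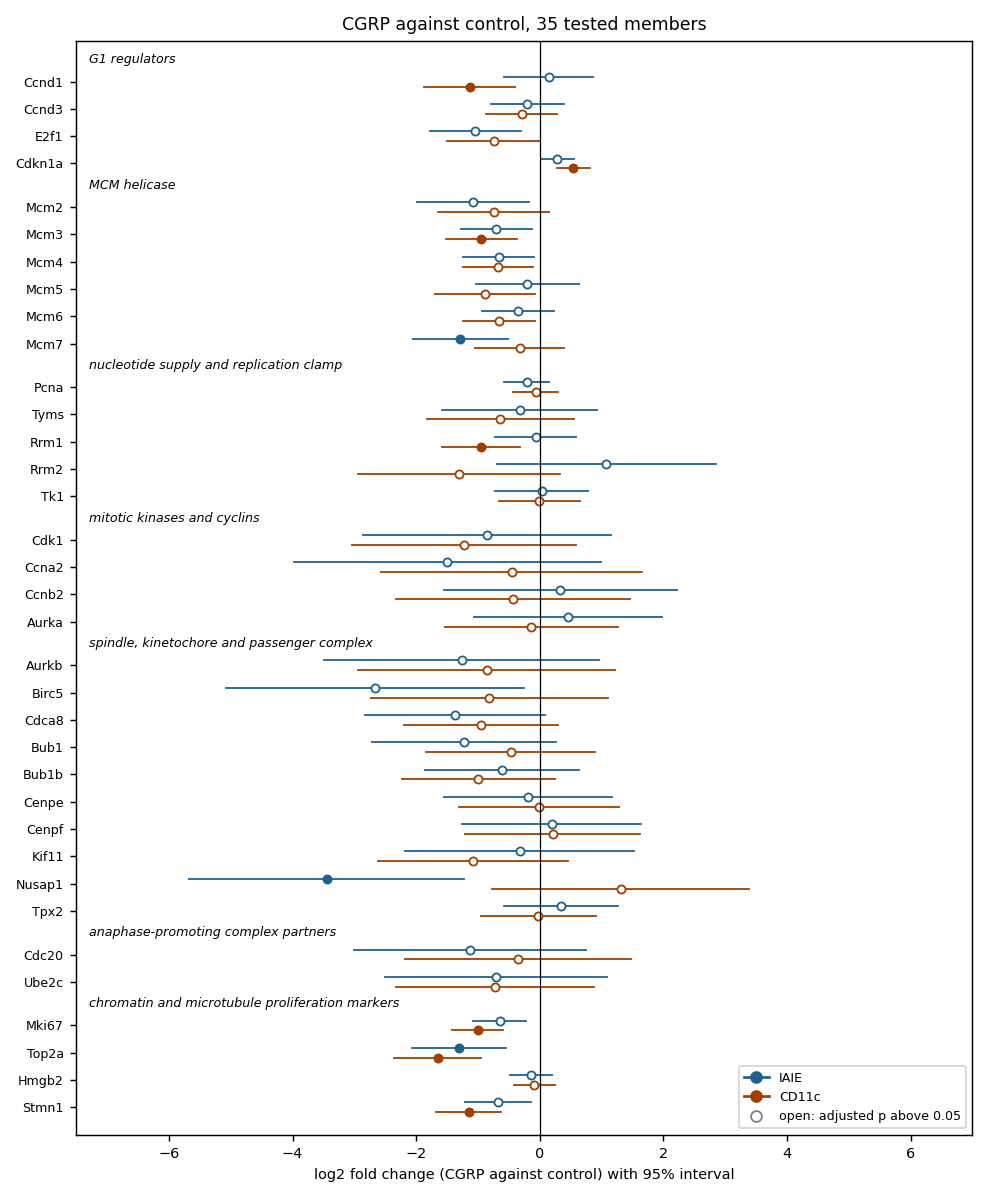
Log2 fold change with CGRP of each tested gene (points, with 95% confidence intervals) in IAIE and CD11c cells, ordered by role; filled points passed an adjusted p of 0.05 in edgeR. Of the 35 points, 27 of IAIE cells and 32 of CD11c cells lie left of 0, whereas Cdkn1a lies to the right in both.

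Markers of cell types moved with CGRP as well, where 9.21% of all genes were called in IAIE cells and 10.9% in CD11c cells. Of 10 macrophage markers Fcgr1 rose in both subsets, Mrc1 fell in IAIE cells and Lyz2 in CD11c cells, and the list summed to 8907 to 12206 CPM in IAIE controls, 7765 to 9591 with CGRP, 6452 to 8357 in CD11c controls and 4411 to 5679.6 with CGRP, the CD11c groups without overlap. The sum of the T and NK cell list was 70.7 to 165 CPM in IAIE controls and 176 to 215 with CGRP, and nearly all of it was Il7r, a cytokine receptor, which rose in IAIE cells (0.92 ± 0.22 (SE), edgeR adjusted p = 0.00965); the defining T cell markers Cd3d, Cd8a and Trac stood at 0 to 0.972 CPM in the 12 libraries. In CD11c cells 6 of 6 tested mural markers rose by edgeR (3 by limma-voom), from a summed 25.7 to 32.6 CPM to 56.2 to 366 CPM. Of 8 tested fibroblast markers there, 3 rose by edgeR (2 by DESeq2 and 1 by limma-voom), from a summed 209 to 279 to 465 to 774 CPM. In IAIE cells 1 fibroblast marker rose and 3 fell by edgeR, while limma-voom called 1 higher and 0 lower. The fibroblast sums were 361 to 1562 CPM without and 573 to 2225 CPM with CGRP, and no mural marker passed. B cell markers fell in both subsets, 2 of 11 in IAIE cells (508 to 624 to 306 to 369 CPM) and 3 of 11 in CD11c cells (155 to 181 to 86.8 to 105 CPM). Of 9 tested dendritic cell markers, 2 fell in IAIE cells, and in CD11c cells 3 fell and 1 rose, with sums of 669.8 to 748 CPM without and 716 to 809 CPM with CGRP. None of 6 tested monocyte markers passed in either subset by edgeR, with 2 in each at an unadjusted p under 0.05, whereas DESeq2 called 1 lower in IAIE cells and 2 lower in CD11c cells and limma-voom 0 and 2 (summed 233 to 257 CPM in CD11c controls and 229.9 to 255.5 CPM with CGRP). No gene of the 12 marker lists that the files hold was at 0 in every library. The part of these cells in the results on cell cycle genes was not tested.

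Among the G1 regulators, Cdkn1a rose and Ccnd1 fell in CD11c cells, and neither passed in IAIE cells. Cdkn1a (chromosome 17, 29090976 to 29100727, plus strand, GRCm38) encodes p21, which inhibits cyclin-dependent kinases and binds the clamp PCNA. CD11c control libraries had 488, 512 and 463 CPM of it and CD11c CGRP libraries 754, 757 and 614 CPM. Every CGRP library was above every control, and the log2 fold change was 0.54 ± 0.13 (SE), edgeR adjusted p = 0.00847. IAIE control libraries had 415, 473 and 379.6 CPM and IAIE CGRP libraries 538, 553 and 449.7 CPM. Here the ranges overlapped, because CGRP replicate 3 was below control replicate 2, and the difference was 0.28 ± 0.13 (SE), edgeR adjusted p = 0.208. The rise in CD11c cells was no longer past the threshold without CD11c control replicate 3 or CD11c CGRP replicate 1 (adjusted p 0.0531 to 0.0589). Cdkn1a had the highest CPM of the 37 genes in every library, beside a sum over all 37 of 1215 to 1333 CPM in CD11c controls and 1150.2 to 1342 CPM with CGRP.

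Ccnd1 (chromosome 7, 144929931 to 144939925, minus strand) encodes cyclin D1, the partner of CDK4 and CDK6, and 23.4% of its exon length is overlapped by the antisense gene LTO1. CD11c controls had 16.7, 25.5 and 40.3 CPM of Ccnd1 and CD11c CGRP libraries 14, 10.4 and 13.5 CPM. All CGRP libraries were below all controls, which themselves were widely spread, and the change was -1.13 ± 0.35 (SE), edgeR adjusted p = 0.0426. In IAIE cells the controls had 29.5, 14.05 and 34.9 CPM and the CGRP libraries 31.8, 35.5 and 18.7 CPM. These ranges overlapped and the difference was 0.14 ± 0.34 (adjusted p = 0.871). The Ccnd1 call in CD11c cells was lost without IAIE CGRP replicate 1 or 2, CD11c control replicate 2 or 3 or CD11c CGRP replicate 1, 2 or 3 (adjusted p 0.0502 to 0.254), so it depended on most of the libraries. The CGRP effect on Ccnd1 differed between subsets by -1.28 ± 0.49 on the log2 scale, with an adjusted p of 0.442 for the interaction.

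Ccnd3, which encodes cyclin D3 (chromosome 17, 47505051 to 47599691, plus strand), and E2f1, an activating E2F factor (chromosome 2, 154559407 to 154569892, minus strand), did not pass in either subset alone by edgeR. Ccnd3 read 15.5, 16.9 and 12.98 CPM in IAIE controls, 8.999, 12.9 and 17.5 with CGRP, 19.6, 18.5 and 16.5 in CD11c controls and 14.6, 15.3 and 14.4 with CGRP. CD11c libraries with CGRP were all below their controls, by little, at a log2 difference of -0.296 ± 0.28 (adjusted p = 0.607), and the IAIE ranges overlapped (-0.201 ± 0.28, adjusted p = 0.7504). E2f1 read 29.2, 12.04 and 23.3 CPM in IAIE controls against 10.3, 12.1 and 8.67 with CGRP, and 13.5, 15.7 and 9.44 CPM in CD11c controls against 5.56, 8.42 and 8.896 with CGRP. The CD11c groups were apart and the IAIE groups touched at IAIE control replicate 2. The differences of E2f1 were -1.05 ± 0.35 in IAIE cells (adjusted p = 0.0706, and 0.0342 by DESeq2) and -0.75 ± 0.36 in CD11c cells (adjusted p = 0.226), while the mean of both effects passed at -0.898 ± 0.25 (SE), edgeR adjusted p = 0.0162, except without IAIE control replicate 1 (adjusted p 0.0606).

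The MCM helicase, the ring that unwinds DNA at replication forks, had lower summed transcript levels with CGRP in both subsets, at 109 to 171 CPM in IAIE controls and 65.4 to 102 with CGRP, and 126 to 155 CPM in CD11c controls and 72.3 to 91.9 with CGRP. The groups of each subset did not overlap in this sum. Of the 6 subunits, Mcm7 fell in IAIE cells and Mcm3 in CD11c cells, and Mcm2, Mcm3, Mcm4 and Mcm7 fell in the mean of both subsets. Mcm5 and Mcm6 passed in no CGRP comparison by edgeR.

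Mcm3 (chromosome 1, 20802968 to 20820312, minus strand) read 41.6, 40.5 and 51.7 CPM in CD11c controls and 24.4, 19.1 and 25.8 CPM with CGRP. The groups were apart and the change was -0.95 ± 0.27 (SE), edgeR adjusted p = 0.0306, past the threshold except without CD11c control replicate 1 or 3 or CD11c CGRP replicate 1 or 2 (adjusted p 0.0513 to 0.121). In IAIE cells, controls at 75.4, 30.1 and 53.3 CPM overlapped CGRP libraries at 34.9, 39.1 and 23.6 CPM, and the difference was -0.704 ± 0.27 (adjusted p = 0.127). IAIE control replicate 2 was the low control that made the ranges meet. The mean effect on Mcm3 was -0.83 ± 0.19 (SE), edgeR adjusted p = 0.00489, and it passed without any 1 library.

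Mcm7 (chromosome 5, 138164583 to 138172422, minus strand) shares 26.8% of its 31-base words with other annotated genes, mainly the pseudogene Gm5487, so its counts are uncertain where reads could be split. It read 15.8, 13.8 and 7.16 CPM in IAIE controls and 4.76, 3.89 and 6.41 CPM with CGRP. All 3 CGRP libraries were below all controls, with a change of -1.29 ± 0.37 (SE), edgeR adjusted p = 0.0314. In CD11c cells controls had 12.2, 17.8 and 11.8 CPM and CGRP libraries 10.4, 11.1 and 11.9 CPM, a small shift of -0.33 ± 0.34 (adjusted p = 0.656). The Mcm7 call in IAIE cells was lost with limma-voom (adjusted p = 0.0877) and without IAIE control replicate 1 or 2, IAIE CGRP replicate 1 or 2 or CD11c CGRP replicate 3 (adjusted p 0.0505 to 0.138). Its mean effect, -0.81 ± 0.25 (SE), edgeR adjusted p = 0.0307, was lost without IAIE control replicate 1 or 2, IAIE CGRP replicate 1 or 2, CD11c control replicate 2 or CD11c CGRP replicate 1, 2 or 3 (adjusted p 0.0563 to 0.0931).

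Mcm2 (chromosome 6, 88883474 to 88898780, minus strand) and Mcm4 (chromosome 16, 15623897 to 15637400, minus strand) passed in the mean of both subsets alone. Mcm2 read 19.2, 15.8 and 14.8 CPM in IAIE controls against 10.9, 8.504 and 4.53 with CGRP, and 15.5, 13.3 and 11.2 CPM in CD11c controls against 13.8, 6.44 and 3.38 with CGRP. The IAIE groups were apart, while CD11c CGRP replicate 1 was within the range of its controls. Mcm4 read 20.5, 18.9 and 21.5 CPM in IAIE controls against 12.97, 13.6 and 11.7 with CGRP, apart from each other, and 26.9, 30.6 and 16.5 CPM in CD11c controls against 14, 13.1 and 18.9, overlapping through CD11c control replicate 3. The mean effects were -0.91 ± 0.305 (SE), edgeR adjusted p = 0.0446 for Mcm2 and -0.67 ± 0.19 (SE), edgeR adjusted p = 0.0189 for Mcm4. Mcm2 was lost without IAIE control replicate 1, 2 or 3, IAIE CGRP replicate 2 or 3, CD11c control replicate 1, 2 or 3 or CD11c CGRP replicate 2 or 3 (adjusted p 0.0556 to 0.113), and Mcm4 without CD11c control replicate 2 or CD11c CGRP replicate 2 (adjusted p 0.0518 to 0.06404).

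Of the genes of nucleotide supply and the replication clamp, Rrm1 fell in CD11c cells and the other 4 passed in neither subset with CGRP. Rrm1 (chromosome 7, 102441695 to 102469771, plus strand) encodes the large subunit of ribonucleotide reductase, which makes deoxynucleotides. It read 31.004, 27.4 and 21.03 CPM in CD11c controls and 16.7, 7.92 and 15.8 CPM with CGRP, with no overlap and a change of -0.95 ± 0.303 (SE), edgeR adjusted p = 0.0498. IAIE cells had 20.5, 13.2 and 11.6 CPM without and 15.9, 13.8 and 13.95 CPM with CGRP, a difference of -0.063 ± 0.31 (adjusted p = 0.941). The Rrm1 call stood close to the threshold and was lost without IAIE control replicate 2, IAIE CGRP replicate 1, 2 or 3, CD11c control replicate 1, 2 or 3 or CD11c CGRP replicate 2 or 3 (adjusted p 0.0505 to 0.222).

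Pcna (chromosome 2, 132249162 to 132253314, minus strand) shares 23.3% of its 31-base words with the pseudogene Pcna-ps2. It read 244, 148 and 171 CPM in IAIE controls and 141, 198 and 146 CPM with CGRP, and 102, 93.1 and 100.4 CPM in CD11c controls and 97.6, 94.6 and 89.7 CPM with CGRP. Both pairs of groups overlapped. The CGRP differences of Pcna were -0.21 ± 0.17 (95% confidence interval -0.57 to 0.15, adjusted p = 0.527) in IAIE cells and -0.065 ± 0.17 (95% confidence interval -0.43 to 0.2999, adjusted p = 0.888) in CD11c cells. Tk1 (chromosome 11, 117815526 to 117826092, minus strand), the thymidine kinase of the salvage pathway, read 6.82, 11.2 and 12.1 CPM in IAIE controls, 10.1, 12.4 and 8.11 with CGRP, 29.4, 39.7 and 27.5 in CD11c controls and 21.1, 50.99 and 24.7 with CGRP. Its CGRP differences were 0.028 ± 0.36 and -0.007 ± 0.31 (adjusted p = 0.9797 and 0.995), with overlapping groups in each subset. Tyms, thymidylate synthase, had group means of 3.86 and 3.13 CPM in IAIE cells and 6.58 and 4.11 CPM in CD11c cells, without and with CGRP. Rrm2, the small reductase subunit, had 1.72, 3.54, 5.25 and 2.14 CPM in the same order, with 10.3 CPM in CD11c control replicate 2 and 0 to 4.76 CPM elsewhere.

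The mitotic kinases and cyclins were close to the floor of detection, and none passed in any comparison by edgeR, DESeq2 or limma-voom. Cdk1 (chromosome 10, 69335146 to 69352938, minus strand), the kinase that drives entry into mitosis, read 2.48, 0.573 and 1.34 CPM in IAIE controls against 1.85, 0.243 and 0.377 with CGRP, and 3.26, 2.104 and 3.43 CPM in CD11c controls against 1.53, 0.495 and 1.601 with CGRP. CD11c groups were apart and IAIE groups were not. The differences of -0.85 ± 0.96 and -1.23 ± 0.86 had adjusted p of 0.671 and 0.458. In IAIE cells with CGRP, Ccna2, Ccnb1 and Plk1 were at or under 3 counts in all libraries. Plk1 had 0.931, 2.29 and 0.895 CPM in IAIE controls and 0 in the 3 CGRP libraries, at least 1.97-fold lower with 3 counts per library taken as the floor, a limit that covers counting error only. IAIE control replicates 1 and 3 held 3 and 2 counts, themselves at or under that floor, and replicate 2 held 8. The bound thus rested on IAIE control replicate 2. Ccnb2, the second B-type cyclin, ranged from 0.356 to 4.86 CPM and Aurka, a kinase of the spindle poles, from 1.24 to 5.3 CPM over the 12 libraries. The summed level of the 6 genes was 6.204 to 11.2 CPM in IAIE controls, 4.903 to 9.48 with CGRP, 10.5 to 14.3 in CD11c controls and 9.79 to 10.2 with CGRP; edgeR gave 0 and 0 of the 4 tested at an unadjusted p under 0.05 in IAIE and CD11c cells.

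Among the 10 genes of the spindle, kinetochore and passenger complex, Nusap1 fell in IAIE cells and none passed in CD11c cells by edgeR, DESeq2 or limma-voom. Nusap1 (chromosome 2, 119618298 to 119651244, plus strand), which encodes a protein that bundles spindle microtubules, read 10.9, 7.17 and 0.895 CPM in IAIE controls and 1.06, 0.729 and 0 CPM with CGRP. IAIE control replicate 3 was within the range of the CGRP libraries, so the groups overlapped although the fitted change was -3.45 ± 1.06 (SE), edgeR adjusted p = 0.0478. In CD11c cells the controls had 2.86, 0.701 and 0.644 CPM and the CGRP libraries 4.79, 4.21 and 0.712 CPM, a difference of 1.31 ± 0.99 (adjusted p = 0.505). DESeq2 and limma-voom did not call Nusap1 in IAIE cells, and in edgeR it was lost without IAIE control replicate 1 or 2, IAIE CGRP replicate 1, 2 or 3, CD11c control replicate 2 or 3 or CD11c CGRP replicate 1 or 2 (adjusted p 0.0536 to 0.198). The effects of Nusap1 in both subsets differed by 4.75 ± 1.45 on the log2 scale, with an adjusted p of 0.266 for the interaction.

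The other 9 genes of the spindle group were sparse. Birc5 had 0, 6.88 and 0.895 CPM in IAIE controls and 0.794, 0.486 and 0 CPM with CGRP, at or under the floor, and 4.49, 7.72 and 3.22 against 4.03, 1.98 and 2.67 CPM in CD11c cells. Cdca8 (borealin of the passenger complex) had group means of 3.49 and 1.41 CPM in IAIE cells and 10.5 and 5.38 CPM in CD11c cells, without and with CGRP, and its CD11c controls of 13.9, 11.7 and 6.01 CPM overlapped the CGRP libraries of 5.18, 6.68 and 4.27 CPM. Kif11, the motor that separates spindle poles, had 6.94, 7.25 and 6.87 CPM in CD11c controls and 4.41, 3.96 and 1.601 CPM with CGRP, entirely below, at a difference of -1.08 ± 0.73 (adjusted p = 0.437). Bub1 and Bub1b, of the spindle checkpoint, Cenpe and Cenpf, of the kinetochore, Tpx2, a spindle assembly factor, and Aurkb, the passenger kinase, had adjusted p between 0.339 and 0.996 in both subsets. The group summed to 29.1 to 53.04 and 20.7 to 46.3 CPM in IAIE cells without and with CGRP, and to 51.9 to 62.01 and 36.8 to 49.5 CPM in CD11c cells. Cdc20 and Ube2c, the activator and the ubiquitin-conjugating enzyme of the anaphase-promoting complex, were at 0.31 to 4.48 CPM and 0.729 to 6.22 CPM over the 12 libraries, and neither passed in any comparison.

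The chromatin and microtubule markers carried the clearest change. Their summed level was 226 to 246 CPM in IAIE controls and 154 to 187 CPM with CGRP, and 331 to 370.4 CPM in CD11c controls and 173 to 252 CPM with CGRP, so that groups were apart in both subsets. Mki67, Top2a and Stmn1 fell in CD11c cells under every alternative, Top2a also fell in IAIE cells, and Hmgb2 passed in neither.

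Mki67 (chromosome 7, 135689784 to 135716361, minus strand) encodes Ki-67, which coats mitotic chromosomes and is made in cycling cells. CD11c controls had 155, 174 and 136 CPM and CD11c CGRP libraries 92.2, 61.9 and 77.04 CPM. The highest CGRP library was well below the lowest control, and Mki67 fell to 0.498 of the control level (-1.005 ± 0.198 (SE), edgeR adjusted p = 0.00189; 95% confidence interval -1.42 to -0.59). IAIE controls had 84.998, 80.6 and 97.6 CPM and IAIE CGRP libraries 75.2, 53.2 and 39.98 CPM. The groups were again apart, with CGRP replicate 1 nearest to the controls, but the difference of -0.65 ± 0.204 had an edgeR adjusted p of 0.0528. It passed in 10 of 24 alternatives, DESeq2 among them (adjusted p = 0.0204) and limma-voom not (adjusted p = 0.0705).

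Top2a (chromosome 11, 98992943 to 99024189, minus strand) encodes topoisomerase II alpha, which untangles replicated DNA. CD11c controls had 33.9, 44.9 and 42.7 CPM and CD11c CGRP libraries 18.2, 7.67 and 12.5 CPM. All CGRP libraries were below all controls, and Top2a fell to 0.317 of the control level (-1.66 ± 0.34 (SE), edgeR adjusted p = 0.00245). IAIE controls had 26.99, 10.03 and 18.8 CPM and IAIE CGRP libraries 9.26, 7.05 and 6.22 CPM. These groups were close but did not overlap, with a change of -1.31 ± 0.36 (SE), edgeR adjusted p = 0.0265. The IAIE call was lost without IAIE control replicate 1 or 3 or IAIE CGRP replicate 2 or 3 (adjusted p 0.0616 to 0.188) and with limma-voom (adjusted p = 0.106).

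Stmn1 (chromosome 4, 134468320 to 134473843, plus strand) shares 22.4% of its 31-base words with other annotated genes, mainly Gm11223. CD11c controls had 45.7, 38.6 and 32.8 CPM of Stmn1 and CD11c CGRP libraries 20.9, 13.9 and 17.4 CPM, without overlap, and the change was -1.15 ± 0.25 (SE), edgeR adjusted p = 0.00448. IAIE controls at 38.8, 22.4 and 26.4 CPM were above IAIE CGRP libraries at 14.8, 20.2 and 19.8 CPM, and the difference of -0.67 ± 0.26 did not pass (adjusted p = 0.119). Hmgb2, with 21.4% shared words, had group means of 97.7 and 88.9 CPM in IAIE cells and 119 and 111 CPM in CD11c cells, and differences of -0.14 ± 0.16 and -0.0903 ± 0.16 (95% confidence interval -0.48 to 0.199 and -0.42 to 0.24).

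**Figure D3:**
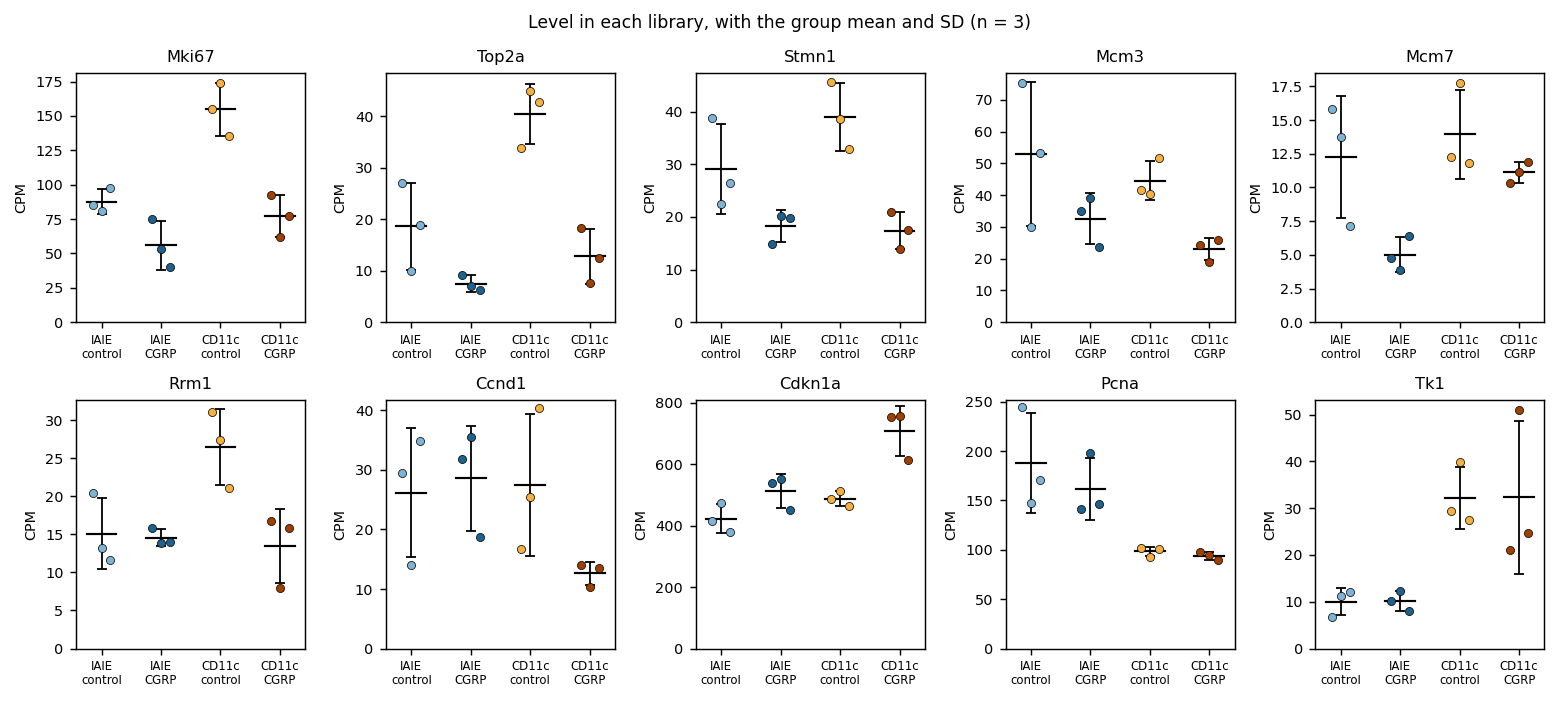
Levels of 10 cell cycle genes in CPM (vertical axis of each panel, starting at 0) in the 12 libraries (points), by group, with the mean and SD of 3 libraries as a bar. In CD11c cells the CGRP points of Mki67, Top2a and Stmn1 lie below all control points, those of Cdkn1a lie above, and the Pcna points of the CD11c subset lie below those of the IAIE subset.

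**Figure D4:**
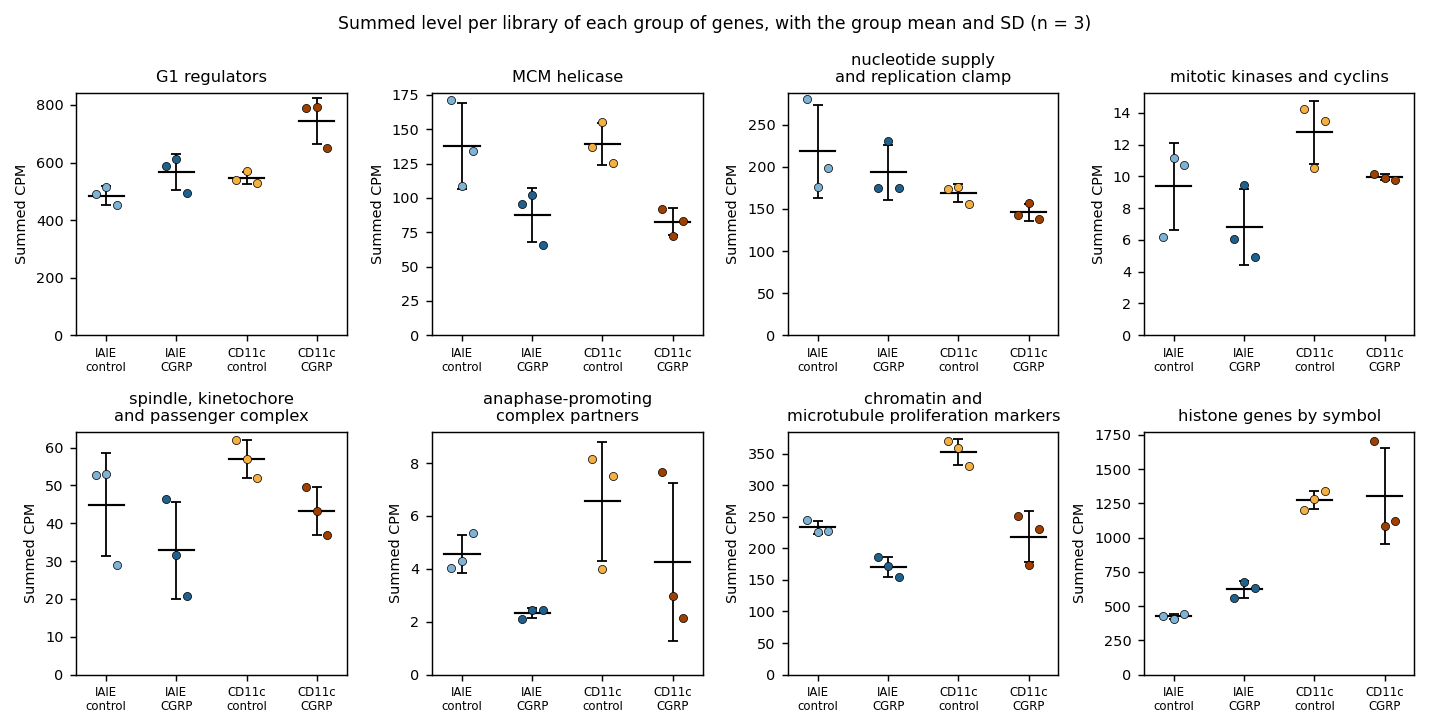
Summed CPM of the genes of each role (vertical axis) in the 12 libraries (points), by group. The sums of the MCM helicase and of the chromatin and microtubule markers are lower with CGRP in both subsets without overlap, while the G1 regulators, dominated by Cdkn1a, are not.

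Averaged over both subsets, 9 of 35 genes passed, 8 lower and 1 higher, where 17.9% of all genes were called (9.89% higher and 7.97% lower). Those that fell were E2f1, Mcm2, Mcm3, Mcm4, Mcm7, Mki67, Top2a and Stmn1, and Cdkn1a rose. Top2a had the largest mean fall among these at -1.48 ± 0.25 (SE), edgeR adjusted p = 2.19e-04, followed by Stmn1 at -0.91 ± 0.18 (adjusted p = 0.001102) and Mcm2 at -0.91 ± 0.305. Mki67 had -0.83 ± 0.14 (SE), edgeR adjusted p = 3.03e-04, and Cdkn1a 0.41 ± 0.091 (SE), edgeR adjusted p = 0.00311. Below 0 were 30 of 35 mean effects, with a median of -0.701 against -0.002 over all genes. No alternative reversed the mean effect of any of these 9 genes. The mean takes the libraries of both subsets as independent, although same-numbered CGRP libraries deviated together. With the libraries of both subsets summed by treatment and number, an alternative chosen after seeing the data, 7 of 35 genes passed, 6 lower and 1 higher, where 13.6% of all genes were called, and Mcm2 and Mcm7 no longer passed. The test of the difference between the subsets' CGRP effects passed for none of the 35 genes by edgeR, DESeq2 or limma-voom, where edgeR called 0.151% of all genes (0.134% higher and 0.0168% lower). At an unadjusted p under 0.05 there were 2, Nusap1 and Ccnd1, and the median difference was -0.035. For Mki67, Top2a and Stmn1 the differences in effect, CD11c minus IAIE, were -0.36 ± 0.28, -0.34 ± 0.49 and -0.48 ± 0.36, with 95% confidence intervals of -0.95 to 0.24, -1.38 to 0.69 and -1.23 to 0.27. A stronger fall of these transcripts in CD11c cells than in IAIE cells was therefore not shown.

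Without CGRP, the CD11c subset had more of some proliferation transcripts and less of the clamp. Mki67, Top2a and Tk1 were higher in CD11c than in IAIE controls and Pcna was lower. These were 4 of 35 genes (11.4%), 3 higher and 1 lower, where 21.2% of all genes differed between the subsets (10.2% higher and 10.9% lower). Mki67 stood at 84.998, 80.6 and 97.6 CPM in IAIE controls and at 155, 174 and 136 CPM in CD11c controls (0.82 ± 0.1998 (SE), edgeR adjusted p = 0.00557). Top2a differed by 1.13 ± 0.34 (SE), edgeR adjusted p = 0.0213, with the lowest CD11c control above the highest IAIE control, and the call was lost without IAIE control replicate 2 or 3 or CD11c control replicate 2 or 3 (adjusted p 0.0501 to 0.102). Tk1 had 6.82, 11.2 and 12.1 against 29.4, 39.7 and 27.5 CPM, a difference of 1.69 ± 0.34 (SE), edgeR adjusted p = 0.00141. Pcna had 244, 148 and 171 against 102, 93.1 and 100.4 CPM, lower in every CD11c library, with a log2 difference of -0.93 ± 0.17 (SE), edgeR adjusted p = 6.77e-04. The median over the 35 genes was 0.28, beside -0.023 over all genes, and 26 of 35 were above 0. Groups were apart for 34.2% of all genes; entirely above the IAIE controls were 5 of the 35 (16.7% of all genes were) and entirely below was 1 (17.5% of all genes were).

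With CGRP in both, Tk1, Cdkn1a and Mcm7 were higher in CD11c than in IAIE cells and Pcna and Ccnd1 were lower. These were 5 of 35 genes (14.3%), where 16.9% of all genes differed (8.36% higher and 8.51% lower). Tk1 differed by 1.66 ± 0.33 (SE), edgeR adjusted p = 0.001303 and Pcna by -0.78 ± 0.17 (SE), edgeR adjusted p = 0.002995; both passed without any 1 library. Cdkn1a differed by 0.46 ± 0.13 (SE), edgeR adjusted p = 0.0152, lost without IAIE CGRP replicate 3 or CD11c CGRP replicate 1 or 2 (adjusted p 0.0587 to 0.0776), and Mcm7 by 1.13 ± 0.36 (SE), edgeR adjusted p = 0.0365, lost without IAIE CGRP replicate 1 or 2 or CD11c CGRP replicate 1, 2 or 3 (adjusted p 0.0675 to 0.1402). Ccnd1 was lower, at a log2 difference of -1.17 ± 0.35 (SE), edgeR adjusted p = 0.0251, lost without IAIE CGRP replicate 1 or 2 or CD11c CGRP replicate 2 or 3 (adjusted p 0.0637 to 0.122). Mki67 and Top2a, which were higher in CD11c cells without CGRP, differed by 0.47 ± 0.201 and 0.78 ± 0.36 with it (adjusted p = 0.1304 and 0.157). The count of 5 became 2 without CD11c CGRP replicate 2 and 3 without IAIE CGRP replicate 2, CD11c CGRP replicate 1 or CD11c CGRP replicate 3. In this comparison the same-numbered libraries deviated together, and Cdca8 passed as well once a replicate block within each treatment was fitted (1.93 ± 0.63, adjusted p = 0.0421). Nusap1 passed with a replicate block shared by both treatments (2.51 ± 0.85, adjusted p = 0.0487) but not with the block within treatments. The median was 0.397, beside 0.002 over all genes, and its direction was not stable, at 0.61 over the 17 genes under 10 CPM, -0.034 over the other 18, and -0.017 where 10 counts were required in every library. Groups were apart for 34.8% of all genes, with 6 of the 35 entirely above (17.8% of all genes were) and 3 entirely below (17% were).

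**Figure D5:**
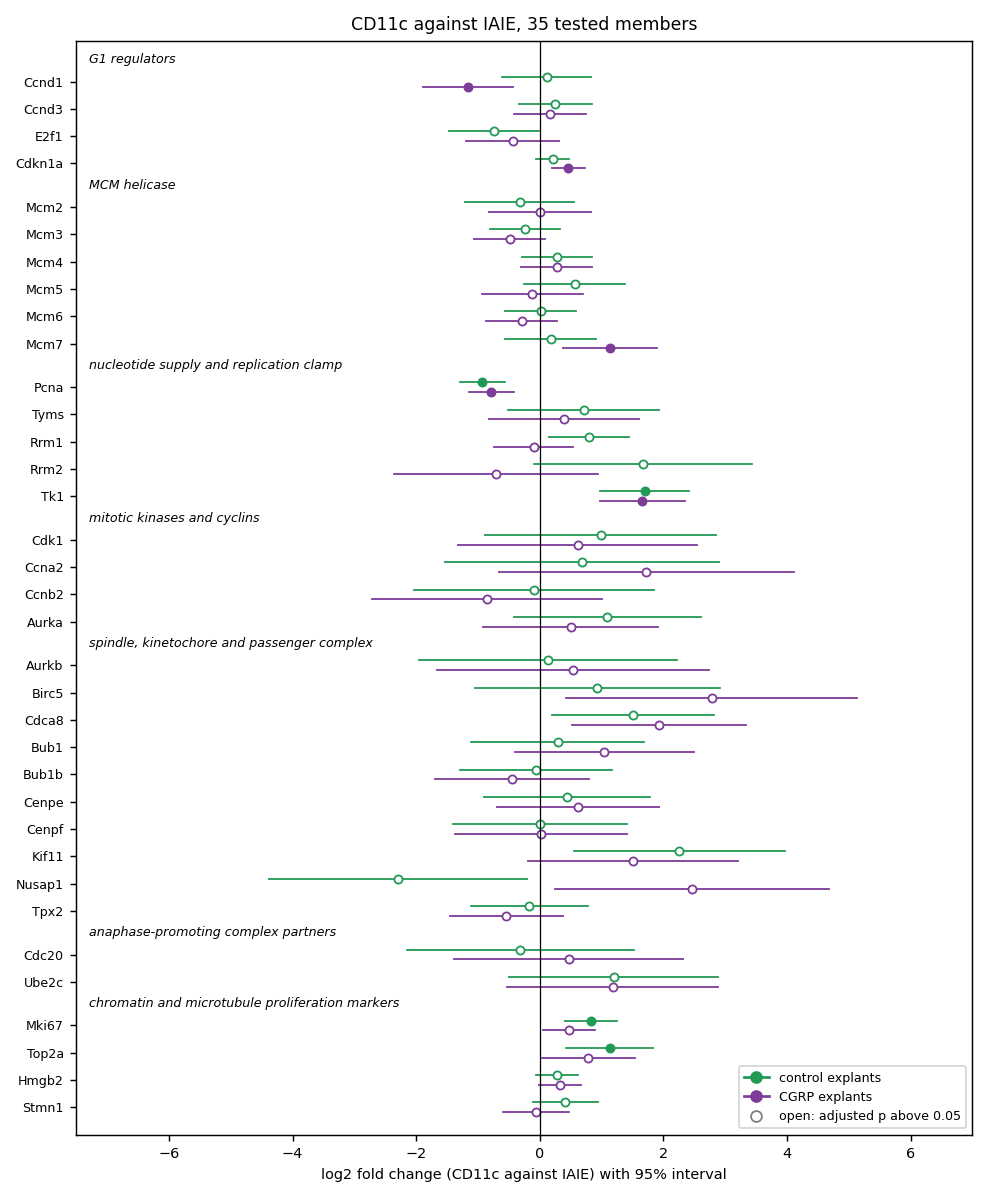
Log2 difference, CD11c minus IAIE, of each tested gene (points, with 95% confidence intervals) in controls and with CGRP, ordered by role; filled points passed an adjusted p of 0.05 in edgeR. Tk1 lies to the right of 0 and Pcna to the left in both comparisons, whereas Mki67 and Top2a passed in controls alone.

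The subset differences in proliferation genes stood beside differences in cell type markers. Of all genes, 21.2% differed between the controls of both subsets. Of 10 macrophage markers, 9 were lower in CD11c than in IAIE controls, where they summed to 6452 to 8357 and 8907 to 12206 CPM. Of 11 B cell markers 9 were lower (155 to 181 against 508 to 624 CPM), and of 9 tested dendritic cell markers 5 were higher and 2 lower (669.8 to 748 against 245 to 299 CPM). Il7r, which made up nearly all of the T and NK cell list (413 to 453 against 70.7 to 165 CPM), was higher (2.08 ± 0.22 (SE), edgeR adjusted p = 1.71e-06), with Cd3d, Cd8a and Trac near 0 as given above. The part of these cells in the differences of Mki67, Top2a, Tk1 and Pcna was not tested.

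Genes of the same pathway outside the 37 gave few calls with CGRP in each subset alone. In the mean of both subsets, 4 of 39 tested genes of replication origins and the replisome fell (10.3%) and none rose. In that mean 9 of 41 tested further genes of G2 and mitosis fell by edgeR (22%) and none rose, while DESeq2 called 11 lower and 1 higher. Of all genes, 7.97% were called lower there. Of 39 tested genes of replication origins and the replisome, Pola2 fell in IAIE cells (2.56%) and Pola1, Lig1 and Dbf4 in CD11c cells (7.69%). Over all genes 9.21% and 10.9% were called, 3.89% and 4.59% of all genes in the lower direction. The share of this list was thus under the lower share in IAIE cells and above it in CD11c cells. Its medians were -0.36 and -0.46, with 28 and 32 genes below 0. Pola1, which encodes the catalytic subunit of DNA polymerase alpha, fell from 17.1, 14.96 and 18.02 CPM in CD11c controls to 3.45, 5.94 and 6.58 CPM, without overlap (-1.65 ± 0.31 (SE), edgeR adjusted p = 0.00138). Of 41 tested further genes of G2 and mitosis, Cenpa and Cks2 fell in IAIE cells (4.88%) and Lmnb1 in CD11c cells (2.44%). By edgeR, these shares were above the 3.89% of all genes called lower in IAIE cells and under the 4.59% in CD11c cells. The order in CD11c cells depended on the tool. DESeq2 called 4 of these genes lower in each subset, and limma-voom 2 in IAIE cells and 4 in CD11c cells. The medians were -0.69 and -0.63. Lmnb1, which encodes lamin B1 of the nuclear envelope, had 321, 299.98 and 328 CPM in CD11c controls and 187, 159 and 169 CPM with CGRP (-0.88 ± 0.16 (SE), edgeR adjusted p = 7.88e-04). Pola1 and Lmnb1 passed without any 1 library. Cenpa, the centromeric histone, was lost without IAIE control replicate 1 or 3 or IAIE CGRP replicate 2 (adjusted p 0.0528 to 0.0884), Pola2 without IAIE control replicate 1 or IAIE CGRP replicate 2 or 3 (adjusted p 0.0813 to 0.167), Lig1 without CD11c control replicate 1 or 2 or CD11c CGRP replicate 1 (adjusted p 0.05396 to 0.0928), Dbf4 without CD11c control replicate 2 or 3 or CD11c CGRP replicate 2 or 3 (adjusted p 0.0819 to 0.1204), and Cks2 without IAIE control replicate 2 or 3 or IAIE CGRP replicate 2 or 3 (adjusted p 0.0533 to 0.117).

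Regulators upstream went both ways. Of further cyclins and kinases, 14.3% were called in each subset, where 9.21% of all genes were in IAIE cells and 10.9% in CD11c cells. Of the RB, E2F, MYB and FOXM1 network, 15.8% were called in IAIE cells and 10.5% in CD11c cells. In the mean of both subsets 7 of 19 genes of that network passed (36.8%), 5 higher and 2 lower, where 17.9% of all genes were called. Of 7 tested further cyclins and kinases, Ccnd2 rose in CD11c cells, from 73.02, 100.1 and 102 to 180.1, 281 and 175 CPM without overlap (1.198 ± 0.23 (SE), edgeR adjusted p = 0.00169), and read 29.5, 16.9 and 17.9 and 19.6, 21.1 and 11.3 CPM in IAIE cells. Ccnd2 encodes cyclin D2, so the D-type cyclins of CD11c cells comprised 1 that rose, 1 that fell, Ccnd1, and Ccnd3, which did not pass. Ccnf, a cyclin that serves a ubiquitin ligase, rose in IAIE cells (0.99 ± 0.28 (SE), edgeR adjusted p = 0.0311) and was lost without IAIE control replicate 1, 2 or 3 or IAIE CGRP replicate 1 or 2 (adjusted p 0.0566 to 0.135). Of 5 tested further CDK inhibitors none passed with CGRP by edgeR, DESeq2 or limma-voom, and 1 in IAIE and 0 in CD11c cells had an unadjusted p under 0.05. Of 19 tested genes of the RB, E2F, MYB and FOXM1 network, Mxd1 and Mxi1 rose in both subsets and E2f5 in IAIE cells. Mxd1 and Mxi1 are antagonists of MYC, listed there for the wider network. Mxd1 rose by 1.12 ± 0.19 (SE), edgeR adjusted p = 5.70e-04 in IAIE cells and by 1.46 ± 0.19 (SE), edgeR adjusted p = 2.90e-05 in CD11c cells, Mxi1 by 1.19 ± 0.18 (adjusted p = 2.19e-04) and 0.92 ± 0.17 (adjusted p = 0.00139). E2f5, a repressor E2F, rose from 8.38, 8.03 and 5.37 to 21.2, 32.6 and 23.005 CPM (1.795 ± 0.33 (SE), edgeR adjusted p = 0.00122).

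Among 20 tested targets of p53, a list that leaves out Cdkn1a, itself a p53 target, Btg2 fell in both subsets, Pmaip1 in IAIE cells and Mdm2 in CD11c cells, and none rose by edgeR (DESeq2 called 0 and limma-voom 1 higher in IAIE cells, and each called 1 higher in CD11c cells). The edgeR calls were 10% of the list in each subset, close to the 9.21% and 10.9% of all genes called (3.89% and 4.59% lower). Btg2, an antiproliferative gene, fell, with a log2 change of -0.86 ± 0.15 (SE), edgeR adjusted p = 8.52e-04 in IAIE cells and -0.69 ± 0.15 (adjusted p = 0.00406) in CD11c cells. Mdm2, the ubiquitin ligase of p53, fell, with a log2 change of -0.41 ± 0.12 (SE), edgeR adjusted p = 0.03602, lost without CD11c control replicate 1 or 2 or CD11c CGRP replicate 1 or 2 (adjusted p 0.0508 to 0.108), and Pmaip1 fell, with a log2 change of -0.52 ± 0.15 (SE), edgeR adjusted p = 0.0312, lost without IAIE control replicate 1 or 3, IAIE CGRP replicate 2 or 3, CD11c control replicate 3 or CD11c CGRP replicate 3 (adjusted p 0.0501 to 0.146). Of 16 tested subunits and cofactors of the anaphase-promoting complex, Anapc2 rose in IAIE cells (0.65 ± 0.16 (SE), edgeR adjusted p = 0.0129; lost without IAIE control replicate 1 or IAIE CGRP replicate 3 (adjusted p 0.0544 to 0.0954)) and Anapc5 fell in CD11c cells (-0.74 ± 0.18 (SE), edgeR adjusted p = 0.0102; lost without CD11c control replicate 1 or CD11c CGRP replicate 2 (adjusted p 0.0576 to 0.0651)). Each subset thus had 6.25% of these anaphase-promoting complex genes called, below the share of all genes. Of 14 tested genes of macrophage growth control, Klf2, Klf4 and Csf2ra fell in both subsets, Bhlhe41 rose in IAIE cells and Maf in CD11c cells. These were 28.6% of the list in each subset. In the mean of both, 42.9% passed, 1 higher and 5 lower, where 17.9% of all genes were called. Klf2, a factor linked to quiescence, fell from 153, 146 and 149 to 90.8, 78.7 and 82.97 CPM in IAIE cells (-0.83 ± 0.13 (SE), edgeR adjusted p = 4.13e-04) and from 145, 145 and 165 to 56.6, 62.1 and 67.1 CPM in CD11c cells (-1.29 ± 0.13 (SE), edgeR adjusted p = 4.30e-06), without overlap in either.

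Histone genes were taken by symbol. Most of them are replication-dependent histones, which are transcribed in S phase and whose transcripts lack a poly(A) tail, so that total RNA is needed to count them, but the list also holds replication-independent genes such as H1f0 and H1f10, and its counts are not counts of S-phase genes alone. Of 48 tested, 29 were higher, H1f10 among them, and 1 (H2ac25) lower in CD11c than in IAIE controls, with a median of 1.55, and they summed to 1201 to 1338 against 407 to 440.5 CPM. Over all genes 10.2% were higher and 10.9% lower between these controls by edgeR. Limma-voom called 22 histone genes higher and 1 lower. H1f2, a linker histone, had 168, 88.6 and 143 CPM in IAIE controls and 360.2, 429.5 and 488 CPM in CD11c controls (1.68 ± 0.21 (SE), edgeR adjusted p = 1.42e-05). With CGRP, H1f2 and H1f4 rose and H4c1 fell by edgeR in IAIE cells, where the sum was 557 to 675 CPM. In these cells DESeq2 called 2 histone genes higher and 0 lower, and limma-voom 1 higher and 0 lower. None of 48 passed in CD11c cells by edgeR or DESeq2, with 4 at an unadjusted p under 0.05, a median of -0.36 and 35 below 0. Limma-voom called 2 lower there. The 3 edgeR calls in IAIE cells were 6.25% of the 48, where 9.21% of all genes were called. H1f2 in IAIE cells rose from 168, 88.6 and 143 to 226, 311 and 298 CPM (1.06 ± 0.21 (SE), edgeR adjusted p = 0.00264), a direction opposite to that of Top2a and Mcm7 in the same libraries.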

How the data were processed

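RNA of the 12 libraries was measured by total RNA-seq. According to the methods of the study, reads were trimmed (Trim Galore), inspected with FastQC and placed on the mm10 genome by HISAT2, and featureCounts assigned them to genes; versions, annotation and strand setting are not given in the sources used here. What the authors deposited are unnormalized read counts for each gene symbol, and 6 columns of the combined table that no label maps to a sample were not used. Counts were not resolved by molecular identifiers here, and the floors cover counting error only. Standard errors and confidence intervals came from the fit and include the spread between libraries.

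Groups were taken from the titles and characteristics. Genes passing filterByExpr (minimum count 10, minimum total 15) were fitted in edgeR 4.0.16 (R 4.3.3) by the quasi-likelihood test with TMM factors, 1 mean per group and a spread shared by all 12 libraries, and p-values were adjusted by Benjamini-Hochberg over the 11927 genes; an adjusted p under 0.05 is a call. The fit was tested on simulated data. The contrasts were CGRP against control in each subset, their mean and difference, and CD11c against IAIE with and without CGRP. The 37 genes, the pathway and marker lists and the tests were chosen with earlier results of these data known. Library values are given for genes past the threshold in any contrast and for Mki67, Top2a, Cdk1, Pcna, Ccnd1, Ccnd3, Cdkn1a and E2f1; other lists name at most 5 genes by smallest p. Gene positions, exon lengths, overlaps and shared 31-base words came from the GENCODE annotation of GRCm38, and promoter windows from RefSeq GRCm38.p6, which was printed only where its start lay within 100 bases of the GENCODE start. Alternatives were RLE and upper-quartile scaling, no filter or at least 10 counts in every library, DESeq2 1.42.0, voom with quality weights in limma 3.58.1, a replicate block, fitting the compared groups only, 1 surrogate variable from sva 3.50.0, a threshold of 0.1, a log2 change of at least 1, thinning to 2127191 counts, and each library left out in turn. Summing both subsets by treatment and number was chosen after seeing the data. Over 5411 genes, deviations of same-numbered libraries from their group means correlated above 0.1 in all 3 pairs only between the CGRP groups (0.331, 0.117 and 0.191), so the numbers were taken to pair libraries in that comparison alone; the labels give no source for the pairing.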

Additional observations from a re-analysis of the deposited data

Results flagged for a closer look

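The CGRP effect differed between the subsets, by the edgeR interaction, for 2 genes of the marker lists. Sparc, a matricellular gene of the lining list, read 47.8, 189 and 97.6 CPM in IAIE controls, 94.8, 53.2 and 56.4 with CGRP, 19.99, 23.1 and 13.9 in CD11c controls and 113, 98.3 and 73.5 with CGRP, and its effect in CD11c cells minus that in IAIE cells was 3.05 ± 0.503 on the log2 scale (adjusted p = 0.0143). Dcn, the fibroblast gene of decorin, read 20.5, 42.4 and 39.4, 17.7, 2.43 and 4.53, 2.45, 1.403 and 1.93 and 57.3, 104 and 6.41 CPM in the same order, with a difference of 6.96 ± 1.096 (adjusted p = 0.00898). These calls depended on the tool: limma-voom called no interaction in the lining or the fibroblast list, while DESeq2 called 1 higher in the lining list and 4 higher and 1 lower in the fibroblast list. None of the cell cycle genes was singled out in this way.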

How the results depend on the processing

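Directions were stable under most alternatives, and counts near the threshold were not; the cause of each shift was not tested, except that a stricter threshold or filter calls or tests fewer genes by construction. With limma-voom the IAIE count of 3 members became 0, the 14 calls of the other lists with CGRP in CD11c cells became 23, and the median interaction of -0.035 became -0.23. With 1 surrogate variable the CD11c count of 7 became 4, the other lists' 17 calls in IAIE cells 11 and their 35 mean-effect calls 17, and the median mean effect -0.49 in place of -0.701. An adjusted p of 0.1 gave 5 members in IAIE cells, 7 in place of 4 in the subset comparison of controls, and 28 calls of other lists in IAIE cells. A minimum log2 change of 1 left 4 members in CD11c cells, 1 of 9 in the mean effect, 2 and 3 in the subset comparisons without and with CGRP, and 8, 6 and 10 calls of other lists in IAIE cells, in CD11c cells and in the mean. Without a filter, 1 member and 3 genes of other lists passed the interaction, in place of 0, and with DESeq2 1 of other lists did. Under a filter of 10 counts in each library, the other lists' 55 calls between controls became 35, the 30 histone calls 10, the IAIE median -0.29, and the subset median with CGRP reversed from 0.397 to -0.017. Thinning gave medians of -0.33 in IAIE cells, -0.502 in the mean and 0.18 between subsets with CGRP, and turned the CGRP effect on Pcna in CD11c cells to 0.042.

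Blocking by replicate number and treatment raised the 4 member calls between controls to 7, gave 1 interaction call among the other lists and moved the median interaction to -0.29. Whether these numbers pair the control libraries is not known. Their deviations correlated by 0.077, 0.015 and 0.007, and the labels do not say. The plain replicate block gave 4 members in IAIE cells, 7 in CD11c cells, 5 between controls and 7 between CGRP groups, and ended no call among the 35 genes. In IAIE cells it added Mki67 (-0.67, edgeR adjusted p = 0.0309), where a pairing of the libraries by number is not known either. Between CGRP groups the numbers were taken to pair the libraries. There both blocks ended the calls of H2bc9, H4c3 and Kif4 in the other lists and no other call of these lists.

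With 1 library left out, the member counts ran over 0 to 3 in IAIE cells, 4 to 7 in CD11c cells, 6 to 9 for the mean, 3 to 6 between controls and 2 to 7 between CGRP groups, and the other lists over 9 to 19 in IAIE cells, the lowest without IAIE CGRP replicate 2. Medians ran over -0.75 to -0.34 in IAIE cells, -0.87 to -0.49 in CD11c cells, -0.77 to -0.57 for the mean and -0.29 to 0.048 for the interaction. Effects in IAIE cells that did not pass changed sign for Pcna (-0.38 to 0.034), Ccnd1 (-0.15 to 0.42, below 0 without IAIE control replicate 2 or IAIE CGRP replicate 2, the latter at -0.0398) and Ccnd3 (-0.46 to 0.017).

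Depth limits the 17 genes under 10 CPM, for which a missed call does not show an absence of change. Total RNA without a stated strand setting leaves antisense overlaps such as that of Ccnd1 unresolved, and shared words make Mcm7, Pcna, Stmn1, Hmgb2, Cdc20 and Ccnb1 uncertain. The cell composition of the sorted samples, the depth of the CGRP libraries and the time in explant culture move with the groups or are shared by all of them, and cannot be told apart from changes within cells.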

Other observations

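Some other regulators of the cycle also differed between the subsets in controls, where 21.2% of all genes differed. By list, 14.3% of further cyclins and kinases, 40% of further CDK inhibitors (2 of 5) and 10.5% of the RB, E2F, MYB and FOXM1 network were called. The shares were 7.69% for origins and the replisome, 4.88% for G2 and mitosis, 6.25% for the anaphase-promoting complex and 30% for p53 targets. Most of these shares were thus below that of all genes. Ccnd2, the gene of cyclin D2, was higher in CD11c than in IAIE controls, at 73.02, 100.1 and 102 against 29.5, 16.9 and 17.9 CPM (2.096 ± 0.26 (SE), edgeR adjusted p = 1.06e-05). The inhibitor genes Cdkn1b, of p27, and Cdkn2b, of p15, were higher as well, by 0.997 ± 0.22 and 1.38 ± 0.42 (adjusted p = 0.00302 and 0.0227). Myc was lower, at 31.4, 23.8 and 34.1 against 76.9, 41.6 and 65.4 CPM (-1.04 ± 0.31 (SE), edgeR adjusted p = 0.0192), and so was Cdt1, a licensing factor of replication origins, at 15.1, 18.004 and 15.2 against 44.05, 29.8 and 35.4 CPM (-1.17 ± 0.24 (SE), edgeR adjusted p = 0.00128). Lmnb1 was higher, at 321, 299.98 and 328 against 111, 187 and 154 CPM (1.07 ± 0.16 (SE), edgeR adjusted p = 7.10e-05). Of 14 genes of macrophage growth control 3 were higher and 5 lower in CD11c controls; Csf2rb, a receptor subunit for GM-CSF, was higher by 1.602 ± 0.16 (adjusted p = 8.66e-07), and Csf1r, the receptor of M-CSF, was lower, at a log2 difference of -1.28 ± 0.15 (adjusted p = 4.89e-06). Among these, a call was lost without 1 library for Cdkn2b, without IAIE control replicate 3 or CD11c control replicate 1 (adjusted p 0.0738 to 0.0877), and for Myc, without IAIE control replicate 1 or 3 or CD11c control replicate 2 (adjusted p 0.05798 to 0.116).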
